A study of Mus musculus with 30 samples.

Results

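The genes described here are 9 genes of fibroblast growth factor (FGF) signalling, the ligands Fgf1, Fgf2, Fgf7 and Fgf10, the receptors Fgfr1, Fgfr2, Fgfr3 and Fgfr4, and the receptor-like gene Fgfrl1. They were chosen by symbol, and 9 of the 38561 genes in the count table carried these symbols. Of the 14438 genes with enough counts to be tested, 8 were among these 9, and Fgfr4, with 56 counts over 30 libraries, was left untested. RNA had been sequenced from adipose-derived stem cells of the inguinal fat pad of 30 male C57BL6/J mice, bought from a diet-induced obesity colony, with 1 library per mouse. The cells had been sorted as Sca-1+, CD34+, CD31-, CD45- and Ter119-, and were grown to passage 2 before RNA was taken. The groups were 8 young lean mice (control chow, 20 weeks old), 8 young obese mice (a lard-based diet with 60% of its energy from fat, 20 weeks old), 8 aged lean mice (control chow, 52 weeks old) and 6 aged obese mice (the same high-fat diet, 52 weeks old). The high-fat diet began at weaning, so in obese mice age and time on the diet cannot be told apart, and some mice of the aged obese group had died before its end point, so its libraries came from survivors.

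FGF ligands bind receptor tyrosine kinases together with heparan sulfate chains on the cell surface, and the activated receptor passes the signal through docking proteins to the RAS-ERK cascade. FGF1 binds every FGF receptor, FGF2 acts strongly through FGFR1 and is used to expand cultured stromal and adipose stem cells, and FGF7 and FGF10 are made by mesenchyme and act mainly on the b splice form of FGFR2, which epithelia make. FGF10 and FGFR2 are needed for fat tissue to form, and FGFRL1 binds FGFs but lacks the kinase domain.

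Counts in genes ranged from 30597765 to 47970233 per library, and levels are given in CPM, the count of a gene relative to the scaled total of its library. Of 10 marker genes of adipose stromal cells 9 averaged 1 CPM or more, with a summed level of 14900 to 48800 CPM, while Cd34, a gene of the sort, lay between 0.193 and 38 CPM. Ly6a, which encodes the sort antigen Sca-1, lay between 550 and 1250 CPM except in aged obese 10 (176 CPM) and aged obese 12 (362 CPM). The leukocyte gene Ptprc and the muscle satellite gene Pax7 had a median of 0 CPM. Of the 8 haematopoietic marker genes, however, 3 averaged 1 CPM or more, and their summed level had group medians of 19.2 to 25.4 CPM. Among the 6 muscle satellite genes 0 averaged 1 CPM or more. Libraries of 1 group differed by unequal amounts, with a chi-square statistic per gene from 6.44 (young obese 19 and 21) to 497 (aged obese 10 and 17). Young obese 18, 19, 20, 21 and 23 lay within 6.44 to 22.8 of each other, and young obese 1 and 2 lay at 8.18 from each other but at 157 to 375 from the other 6. Aged lean 19 and 20 were at 18.4 and young lean 24 and 25 at 21.7. The fits treated each library as independent, and a fit that left out 1 of such close libraries still held those near it. The closest aged obese libraries were 10 and 12 (75.7) and 15 and 17 (76.3), and the other pairs of that group lay between 117 and 497. Calls in aged obese against young lean are also given without these pairs of aged obese libraries where this ends them, and the pair of 15 and 17 was chosen after seeing that it held the highest Fgfr1 counts of its group. Which mice shared a cage was not given in the sources used here.

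Fgf7 was the most abundant of the 4 ligands and Fgfr1 of the 4 signalling receptors, and except for Fgfrl1 the other genes lay far below. On the scale of CPM per kilobase of exon, which allows genes to be compared, the median level over 30 libraries was 48.4 for Fgf7 (range 33.4 to 105), 29.5 for Fgfr1 (23.9 to 64.4) and 10.7 for Fgfrl1 (8.76 to 22.4). It was 0.839 for Fgfr2 (0.4 to 3.85), 0.583 for Fgf2 (0.0925 to 1.59) and 0.224 for Fgfr3 (0.0934 to 0.616). Fgf10 followed with 0.0627, Fgf1 with 0.0305 and Fgfr4 with 0.0151. Neighbours in this order overlapped in range except Fgfr1 with Fgfrl1 and Fgfrl1 with Fgfr2, and Fgf7 was above Fgfr1 in 27 of 30 libraries. The order of Fgf7 and Fgfr1 depended on the length used. With the longest transcript (2672 and 5041 bases) in place of all exon bases, an alternative added after seeing the data, their medians were 58.8 and 57.9 CPM per kilobase and Fgf7 was higher in 19 of 30 libraries, and the order of the other 7 genes did not change. On this scale Fgfr1 made up 93.5% to 98.3% of the summed level of the 4 signalling receptors in a library, with a median of 96.2% (95.9% with the longest transcripts). Fgfr2 made up 1.22% to 5.59% and Fgfr3 0.267% to 1.84%. Fgf7 made up 96.6% to 99.6% of the summed level of the 4 ligands. Cells of bulk libraries are counted together, so fewer cells of a type and less RNA per cell cannot be told apart.

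**Figure D1:**
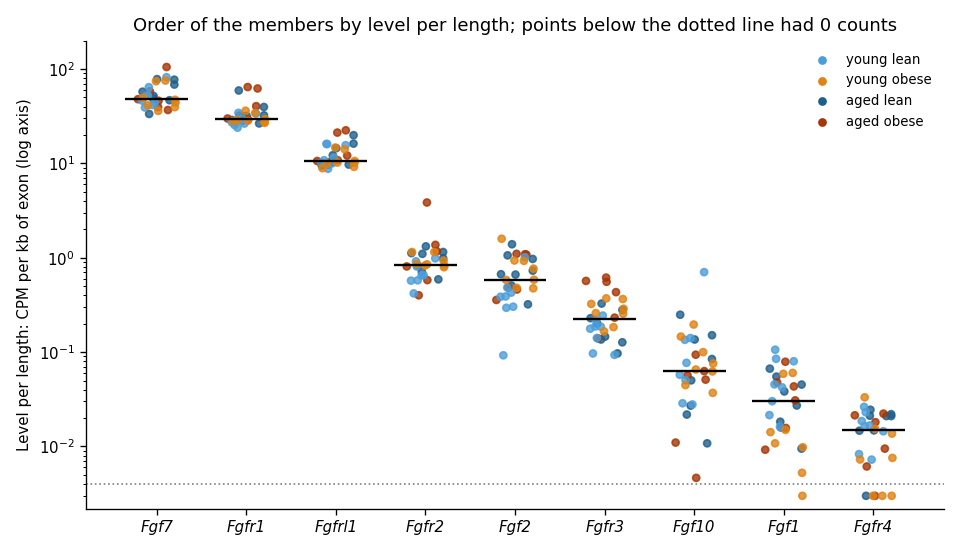
Level of each of the 9 genes per length of exon (CPM per kilobase, log axis) in each of the 30 libraries, coloured by group, with a bar at the median over all libraries. Fgf7 (median 48.4), Fgfr1 (29.5) and Fgfrl1 (10.7) stood above the other 6 genes, which had medians of 0.839 and below, and points under the dotted line had 0 counts.

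The stretches before the starts of Fgf7, Fgf10 and Fgfr3 are shown because Fgf7 and Fgf10 act on the same receptor form and lay at a high and a low level here, and because Fgfr3 gave the most stable difference below. They are the 250 bases before a RefSeq transcript start (build GRCm38.p6), 5′ to 3′ on the gene's strand, the plus strand for each. They lie at chr2:126034408-126034657 (Fgf7), chr13:118714449-118714698 (Fgf10) and chr5:33721474-33721723 (the first of the RefSeq starts of Fgfr3). Capitals mark matches to GGGCGG, the GC box bound by SP factors, on either strand.
Fgf7: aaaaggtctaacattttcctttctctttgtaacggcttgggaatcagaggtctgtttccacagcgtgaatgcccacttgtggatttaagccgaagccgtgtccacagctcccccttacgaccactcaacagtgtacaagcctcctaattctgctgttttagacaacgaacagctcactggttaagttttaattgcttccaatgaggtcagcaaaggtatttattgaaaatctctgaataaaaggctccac
Fgf10: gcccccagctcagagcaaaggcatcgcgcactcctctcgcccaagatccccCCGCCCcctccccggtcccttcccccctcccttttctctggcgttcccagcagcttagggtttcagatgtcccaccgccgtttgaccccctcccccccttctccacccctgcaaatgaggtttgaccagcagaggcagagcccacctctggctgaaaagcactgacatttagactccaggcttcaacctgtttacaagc
Fgfr3: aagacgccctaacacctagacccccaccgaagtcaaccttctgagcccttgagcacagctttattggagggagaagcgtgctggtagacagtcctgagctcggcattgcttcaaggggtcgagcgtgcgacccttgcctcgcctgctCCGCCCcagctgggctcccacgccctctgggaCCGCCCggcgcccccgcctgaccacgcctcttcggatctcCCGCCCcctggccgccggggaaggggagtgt
The stretch of Fgf7 had a GC content of 43.6% and no GC box, that of Fgf10 61.2% and 1 GC box, and that of Fgfr3 66.8% and 3 GC boxes. Over 32851 such stretches of RefSeq genes the median GC content was 52.4% and 32.7% held a GC box. Matches on both strands were also sought for TATAAA, which is the TATA box (12.4% of all stretches), TGANTCA, the AP-1 site (6.75%), and AGGAAG, a core of ETS factor sites (29.5%), with none of them in these 3 stretches. The other windows used were those of Fgf2, Fgfr2, Fgfr4 and Fgfrl1. A match is a description of the letters and not of binding.

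Among the ligands, Fgf7 (ENSMUSG00000027208), a keratinocyte growth factor of mesenchymal cells, was at like levels in every group. In young lean libraries it was lowest at 127 CPM, with a median of 159 and a highest value of 266 CPM. In young obese libraries these values were 117, 148 and 245 CPM, in aged lean libraries 109, 178 and 254 CPM, and in aged obese libraries 119, 153 and 341 CPM. The groups overlapped almost wholly, and the highest library, aged obese 14, stood apart from the next of its group, at 189 CPM. The fitted log2 fold changes lay within 0.13 of 0 in each comparison, for example -0.05 ± 0.21 for obesity in young mice (95% interval -0.48 to 0.38, edgeR adjusted p = 0.901) and 0.08 ± 0.23 for aged obese against young lean (-0.39 to 0.54, adjusted p = 0.861). Young obese 1 and 2, at 241 and 245 CPM, were higher than the other 6 young obese libraries, which reached 161 CPM.

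Fgf2 (ENSMUSG00000037225), basic FGF, was lowest in young lean libraries, with a lowest value of 0.627, a median of 2.63 and a highest value of 6.84 CPM. It lay at 3.22, 4.58 and 10.8 CPM in young obese, at 2.18, 4.74 and 9.42 CPM in aged lean and at 2.42, 5.31 and 7.44 CPM in aged obese libraries. The groups overlapped, but 8 of 8 young obese and 7 of 8 aged lean libraries were above the young lean median. The log2 fold change was 0.90 ± 0.35 for obesity in young mice (edgeR adjusted p = 0.0925), 0.89 ± 0.35 for age in lean mice (adjusted p = 0.85) and 0.84 ± 0.37 for aged obese against young lean (adjusted p = 0.136), and none of these passed the threshold of 0.05. These 3 comparisons share the young lean libraries. Without the young lean library YL512, the highest of that group, the change with obesity in young mice was 1.23 and passed (adjusted p = 0.0185), and Fgf2 also passed in aged obese against young lean. In GENCODE M21 9.44% of its exon length lies opposite exons of Nudt6, an antisense gene with a mean of 7.22 CPM, and the strand setting of the counting was not given in the sources used here. The part of this overlap in the differences was not tested. Over the 30 libraries the level of Fgf2 also went with the slope of log2 levels on gene length (Pearson r = 0.63). With GC and length trends taken out Fgf2 again passed in none of these 3 comparisons. Over the settings other than single libraries left out, that one among them, the change was 0.62 to 1.15 for obesity in young mice. It was 0.64 to 0.92 for age in lean mice and 0.50 to 1.15 for aged obese against young lean.

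Fgf1 (ENSMUSG00000036585), acidic FGF, and Fgf10 (ENSMUSG00000021732), an adipogenic factor of fat stroma, were close to the limit of detection, with 216 and 499 counts over the 30 libraries. Fgf1 lay between 0.0887 and 0.579 CPM (median 0.24) in young lean and between 0 and 0.329 CPM (median 0.0681) in young obese libraries. Young obese 1 and 2 held the 2 highest values of their group, 0.322 and 0.329 CPM, and the other 6 lay at or below 0.082 CPM. The log2 fold change with obesity in young mice was -1.34 ± 0.54 (edgeR adjusted p = 0.101). Aged lean libraries had a median of 0.179 and aged obese libraries of 0.202 CPM, with a log2 fold change of 0.11 ± 0.56 (adjusted p = 0.967). The group medians of Fgf10 were 0.31 CPM (young lean), 0.325 CPM (young obese), 0.31 CPM (aged lean) and 0.248 CPM (aged obese). The young lean library YL512, at 3.24 CPM, was far above the other 7 young lean libraries, which lay between 0.129 and 0.65 CPM. The log2 fold change was -1.74 ± 0.72 for aged obese against young lean (adjusted p = 0.112) and -0.77 ± 0.62 for obesity in young mice (adjusted p = 0.429), and without young lean YL512 these were -0.67 (adjusted p = 0.482) and 0.30. Quality weights in voom are a way of fitting that gives less weight to libraries that vary more. With them Fgf1 passed for obesity in young mice (log2 -1.96, adjusted p = 0.000866) and for age in obese mice (2.03, adjusted p = 0.016). This fit called 4266 and 2870 of all genes there, beside 1275 and 443 in edgeR. It also treated the close libraries young obese 18, 19, 20, 21 and 23 as independent. These held at most 3 counts of Fgf1 each, and young obese 1 and 2 held 10 each. The part of these close libraries in the voom calls was not tested.

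**Figure D2:**
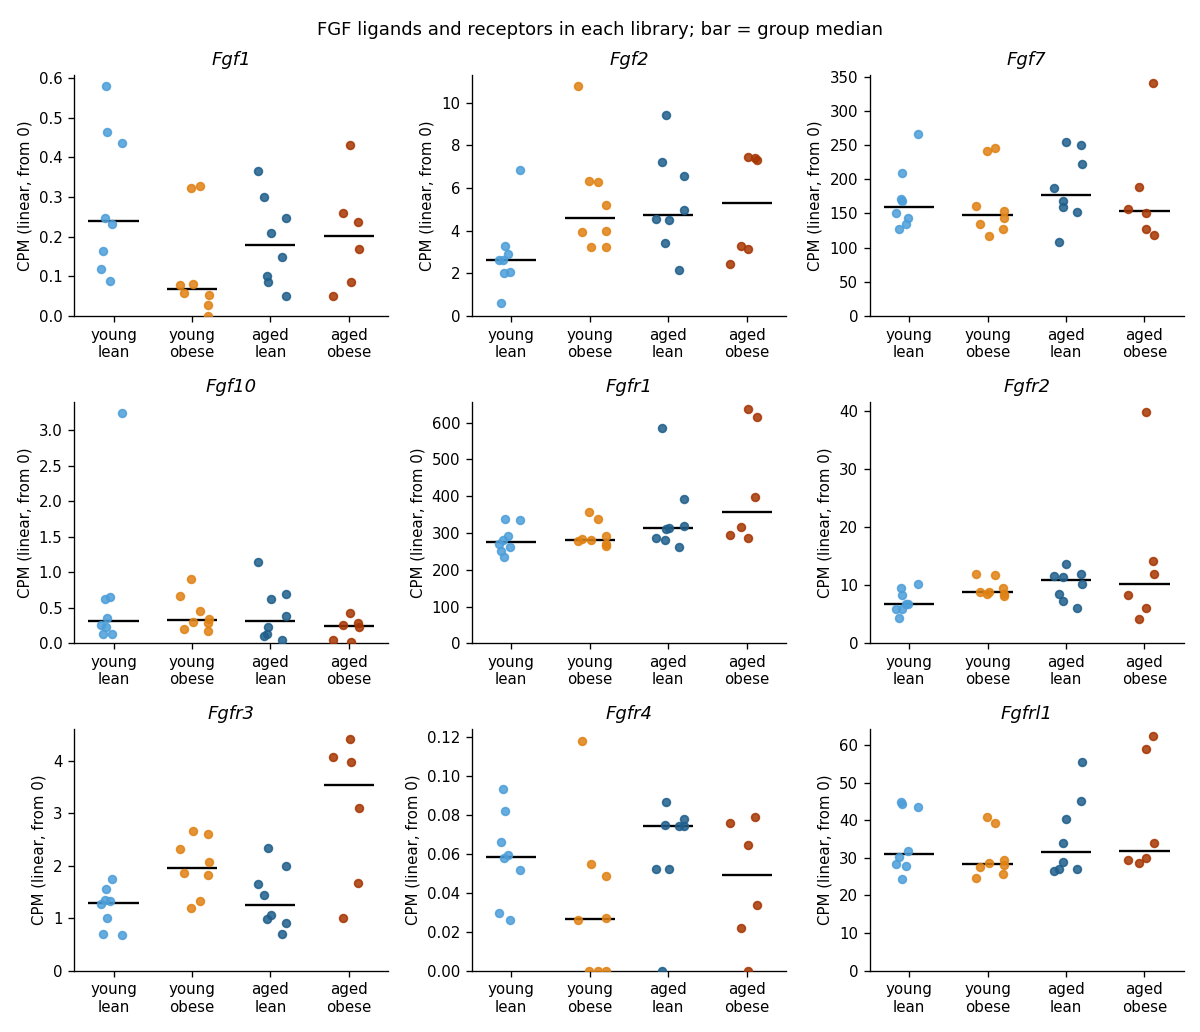
Level (CPM, linear axes from 0) of each of the 9 genes in each library, by group, with a bar at the group median. Fgfr3 had medians of 3.54 CPM in aged obese and 1.3 CPM in young lean libraries, and aged obese 15 stood alone for Fgfr2 at 39.7 CPM.

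Among the receptors, Fgfr1 (ENSMUSG00000031565), the main FGF receptor of mesenchymal cells, was higher in aged obese than in young lean libraries. In young lean libraries it ranged from 236 to 339 CPM with a median of 275, and in young obese libraries from 265 to 356 CPM with a median of 281. In aged lean libraries it ranged from 262 to 585 CPM (median 312), and in aged obese libraries from 287 to 636 CPM (median 358). Most libraries lay in a narrow band, and 3 stood above it, aged lean 16 at 585 CPM, aged obese 15 at 636 CPM and aged obese 17 at 615 CPM. Means were 425 ± 160 CPM (SD, n = 6) in aged obese and 283 ± 37.3 CPM (n = 8) in young lean libraries, a log2 fold change of 0.59 ± 0.17 (edgeR adjusted p = 0.0312), and 6 of 6 aged obese libraries were above the young lean median while the ranges overlapped. The change was 0.53 ± 0.17 for age in obese mice (adjusted p = 0.0875), 0.31 ± 0.17 for obesity in aged mice (adjusted p = 0.484), 0.28 ± 0.16 for age in lean mice (adjusted p = 0.85) and 0.06 ± 0.16 for obesity in young mice (adjusted p = 0.842). In the 3 libraries with the highest Fgfr1, the ligand Fgf7 was at 109 CPM (aged lean 16), 128 CPM (aged obese 15) and 119 CPM (aged obese 17). The call ended without aged obese 15 (log2 0.43, edgeR adjusted p = 0.125), without aged obese 17 (0.45, 0.109) and without both (0.20, 0.474). Leaving out the highest libraries of a group lowers its mean in any case. Over all genes the calls went from 1483 to 642, 826 and 238 in these fits. The call of Fgfr1 also ended without young lean 23 (adjusted p = 0.052) or 26 (0.0571).

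Fgfr2 (ENSMUSG00000030849), whose b form is the receptor of FGF7 and FGF10, was measured here per gene, so its splice forms could not be told apart. In young lean libraries it ranged from 4.32 to 10.2 CPM (median 6.74). The range was 8.19 to 11.9 CPM (median 8.84) for young obese and 6.09 to 13.6 CPM (median 10.8) for aged lean libraries. In aged obese libraries it was 4.13 CPM in mouse 16, 5.99 in mouse 10, 8.36 in mouse 12, 12 in mouse 17, 14.1 in mouse 14 and 39.7 CPM in mouse 15. The aged obese values thus spanned those of every other group, and 1 library was far above the rest. The log2 fold change of aged obese against young lean was 0.96 ± 0.31 (edgeR adjusted p = 0.0461), with 4 of 6 libraries above the young lean median. Without aged obese 15 it was 0.31 (adjusted p = 0.438), and the call held in 4 of the 14 fits that left out a library of these groups, those without aged obese 10, 12 or 16 or without young lean YL512 (adjusted p 0.0515 to 0.438 in the other 10). In that library the 5 chondrocyte marker genes summed to 391 CPM and the pericyte proteoglycan gene Cspg4 was at 105 CPM, the highest value of each in the study. The 8 mural marker genes, Cspg4 among them, summed to 3670 CPM there, below the aged obese median of 4660 CPM. Acan and Col9a1 of the chondrocyte list had a median of 0 CPM. The part of chondrocytes and mural cells in the result was not tested. For the other comparisons between groups the change of Fgfr2 lay between 0.40 ± 0.29 for obesity in young mice (adjusted p = 0.379) and 0.56 ± 0.31 for age in obese mice (adjusted p = 0.341).

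Fgfr3 (ENSMUSG00000054252), a receptor best known from cartilage, gave the most stable difference among the 9 genes, at a low level. Aged obese libraries were at 1 CPM in mouse 16, 1.66 in mouse 14, 3.09 in mouse 17, 3.98 in mouse 10, 4.06 in mouse 12 and 4.41 CPM in mouse 15. Young lean libraries ranged from 0.668 to 1.75 CPM with a median of 1.3, so 4 of 6 aged obese libraries lay above every young lean library. Means were 3.03 ± 1.41 CPM (SD, n = 6) and 1.2 ± 0.387 CPM (n = 8), a log2 fold change of 1.33 ± 0.30, or 2.52-fold (edgeR adjusted p = 0.0093). Young obese libraries ranged from 1.19 to 2.65 CPM (median 1.96) and aged lean libraries from 0.694 to 2.34 CPM (median 1.24). The change was 0.72 ± 0.28 for obesity in young mice (adjusted p = 0.0981), with 7 of 8 libraries above the young lean median, and 1.13 ± 0.30 for obesity in aged mice (adjusted p = 0.0875), with 5 of 6 above the aged lean median. It was 0.61 ± 0.30 for age in obese mice (adjusted p = 0.26) and 0.20 ± 0.29 for age in lean mice (adjusted p = 0.937). The interaction of age and obesity was 0.42 ± 0.41 (adjusted p = 0.793). In aged obese libraries the chondrocyte genes summed to 27 to 391 CPM (median 163), against 36.1 to 169 CPM (median 77.3) in young lean libraries, and mural cell genes to 3280 to 7490 CPM against 2710 to 5600 CPM. From the lowest to the highest Fgfr3, the chondrocyte sums of the 6 aged obese libraries were 27 CPM (mouse 16), 338 (14), 82.2 (17), 72.4 (10), 245 (12) and 391 CPM (15), and the mural sums were 3280, 5640, 3540, 7490, 5850 and 3670 CPM. Aged obese 10 and 12, which had high Fgfr3, also had the lowest levels of both sort genes, Ly6a at 176 and 362 CPM and Cd34 at 0.193 and 0.732 CPM. The part of these cell types and of the sort in the result was not tested. In GENCODE M21 13.9% of the exon length of Fgfr3 lies opposite a gene model of unknown status.

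Fgfr4 (ENSMUSG00000005320), the receptor through which the gut hormone FGF15 acts in liver, had 0 counts in 5 of 30 libraries and at most 0.118 CPM. A count of 0 allows up to 3 counts in a library, so its absence cannot be shown, and no comparison was made. Fgfrl1 (ENSMUSG00000008090), the receptor-like gene without a kinase, had a median of 31 CPM (range 24.4 to 44.9) in young lean libraries and of 28.3 CPM (24.7 to 40.9) in young obese ones. For aged lean mice the median was 31.5 CPM (26.4 to 55.4) and for aged obese mice 31.9 CPM (28.6 to 62.3). Aged obese 14 and 15 were highest, at 62.3 and 58.9 CPM, and the other 4 libraries of that group lay between 28.6 and 33.8 CPM. The log2 fold change was 0.41 ± 0.20 for age in obese mice (edgeR adjusted p = 0.273), with 6 of 6 libraries above the young obese median, and 0.23 ± 0.20 for aged obese against young lean (95% interval -0.18 to 0.65, adjusted p = 0.473).

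The counts of calls among these genes are given beside the share over all genes. With obesity in young mice 0 of 8 passed (percent of all tested genes called: 8.83%), and 3 had an unadjusted p below 0.05 (28.3% of all genes). With obesity in aged mice 0 of 8 passed (0.222% of all genes) and with age in obese mice 0 of 8 (3.07%). With age in lean mice 0 of 8 passed in edgeR, as did 0 of all genes (0%), with 773 genes (5.35%) at an unadjusted p below 0.05, among them Fgf2 as the 1 member, and with 7 genes called by DESeq2. In aged obese against young lean, the comparison in which both age and diet differed, 3 of 8 passed, Fgfr1, Fgfr2 and Fgfr3, all higher (10.3% of all genes passed, and 5.62% were called higher), and 5 had an unadjusted p below 0.05 (28% of all genes). The 4 ligands were among those that did not pass. For the interaction of age and obesity 0 of 8 passed (0.00693% of all genes), and 0 had an unadjusted p below 0.05 (8% of all genes). The median log2 fold change over the 8 genes was 0.41 in aged obese against young lean, beside -0.01 over all genes, and 0.00 with obesity in young mice, beside -0.02. The comparisons share groups, so their values are not independent of each other.

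**Figure D3:**
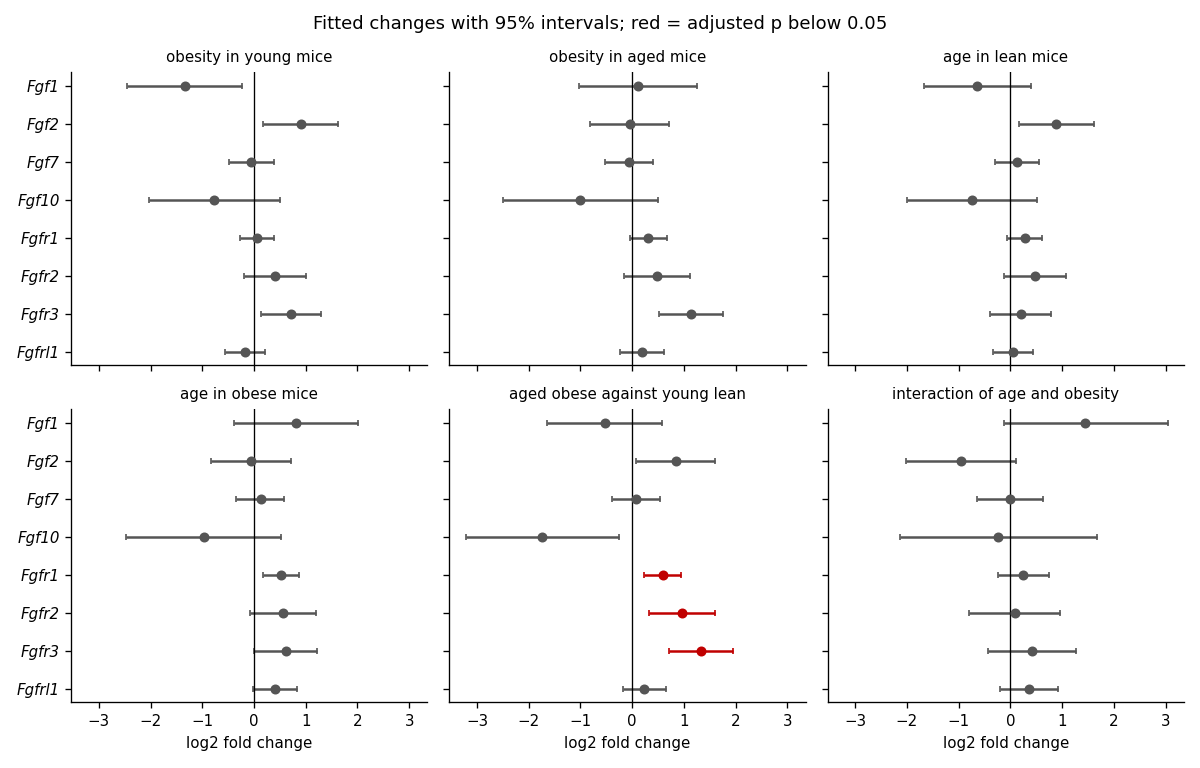
Fitted log2 fold changes of the 8 tested genes in the 6 comparisons, with 95% intervals from edgeR, red where the adjusted p was below 0.05. The 3 red points are Fgfr1 (0.59), Fgfr2 (0.96) and Fgfr3 (1.33) in aged obese against young lean, and most other intervals include 0.

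How far the 3 receptor calls depended on single libraries differed between the receptors. The call of Fgfr3 held in 14 of 14 fits that left out 1 library (adjusted p 0.0012 to 0.0349), and it ended when libraries were weighted by quality in voom (log2 0.63, adjusted p = 0.224) and without aged obese 15 and 17 together (1.15, 0.0659). With these weights Fgfr2 was at 0.57 (adjusted p = 0.228), while Fgfr1 kept its call. Without aged obese 10 and 12 together the 3 calls remained. With the fit restricted to the 14 libraries of the 2 groups Fgfr3 passed, and Fgfr1 (adjusted p = 0.0824) and Fgfr2 (0.169) did not. With no filter on low counts Fgfr2 did not pass (adjusted p = 0.0587), and Fgfr1 and Fgfr3 did.

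**Figure D4:**
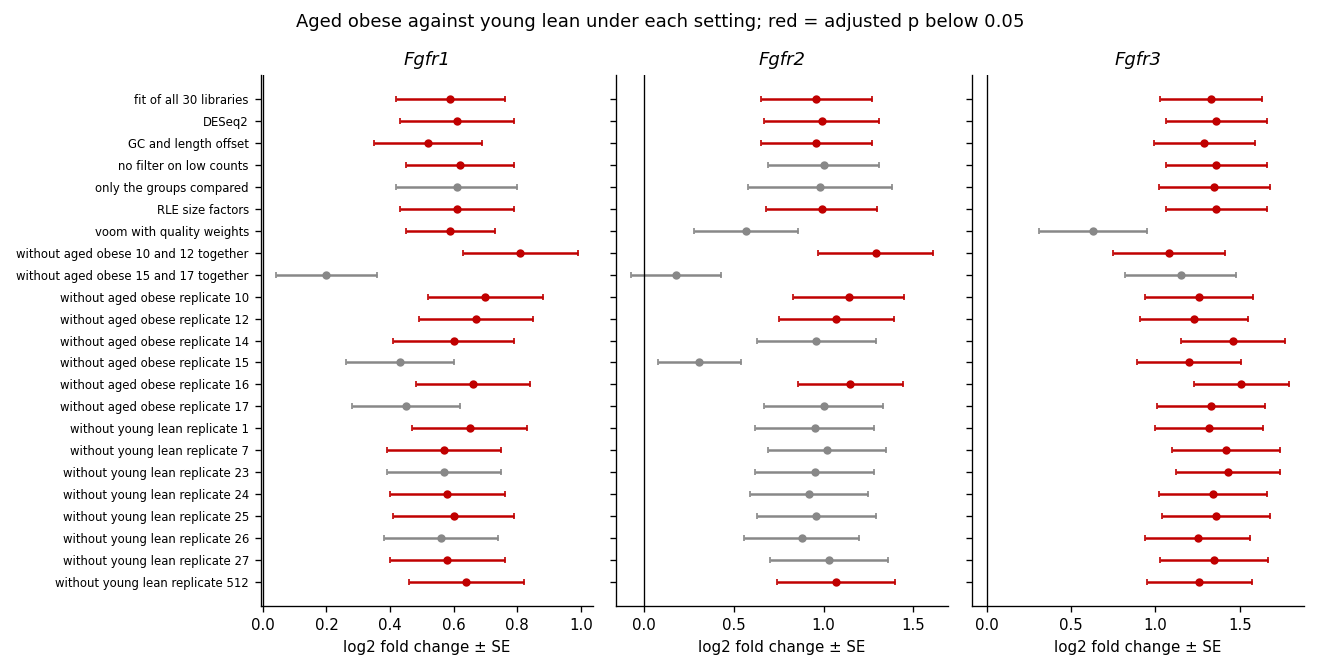
Log2 fold change ± SE of Fgfr1, Fgfr2 and Fgfr3 in aged obese against young lean under each way of fitting and with libraries left out, red where the adjusted p was below 0.05. The values stayed above 0, and without aged obese 15 and 17 together they were 0.20, 0.18 and 1.15, with no adjusted p below 0.05.

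Across the 30 libraries, which share the culture conditions and the counting but differ in depth and group, the levels (log2 CPM) of some of these genes went together. Pearson's r was 0.66 between Fgf2 and Fgfr2, 0.59 between Fgf2 and Fgfr1, and 0.59 between Fgfr2 and Fgfrl1. It was 0.58 between Fgfr1 and Fgfr2, and 0.57 between Fgf7 and Fgfrl1. It was -0.012 between the most abundant ligand and receptor, Fgf7 and Fgfr1, and -0.40 between Fgf7 and Fgfr3. After subtraction of the group means these were, in the same order, 0.59, 0.61, 0.64, 0.54, 0.57, -0.057 and -0.48. Between Fgf2 and Fgf10 r was 0.41 before and 0.63 after this subtraction. Among 10058 genes that averaged 4 CPM or more, the genes most like Fgfr1 were Il17ra, a subunit of the interleukin-17 receptor (r = 0.964), Rnf149 and Aggf1. Those most like Fgf7 were the chemokine gene Ccl7 (0.822), Tbl1xr1 and Magee1, and those most like Fgf2 were Wdr48 (0.867), Cltc and Mapre2. Fgfr2 was most like Maff (0.784), Gramd4 and Hmox1, and Fgfrl1 was most like the guidance gene Ntn1 (0.807), Rtl8c and Cd302. Fgfr3, Fgf1, Fgf10 and Fgfr4 lay below 4 CPM on average and were not compared in this way.

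Of 18 further FGF ligands 3 were high enough to be tested, Fgf11, Fgf18 and Fgf21. Fgf18, a ligand of FGFR3 in cartilage and bone, was the most abundant of them, with a mean of 21.2 ± 18.3 CPM in aged obese libraries beside 8.1 ± 2.98 CPM in those of young lean mice (log2 1.39 ± 0.49, edgeR adjusted p = 0.0647). Fgf21, a metabolic hormone, was the ligand that passed, and it fell in aged obese against young lean by 1.39 on the log2 scale (adjusted p = 0.0331). It lay between 0.0672 and 0.526 CPM in aged obese and between 0.386 and 1.12 CPM in young lean libraries, and the ranges overlapped. This call ended without aged obese 10 and 12 together (-1.28, adjusted p = 0.0833), without aged obese 15 and 17 together (-1.29, 0.119), with no filter on low counts (-1.36, 0.0592), and without any 1 of aged obese 10, 12, 15 or 17 or young lean 23, 24, 25 or 26 (adjusted p 0.0514 to 0.0818). Fgf11, an intracellular relative of the FGFs, had a log2 fold change of 1.09 ± 0.50 with obesity in young mice (adjusted p = 0.152).

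Of 33 coreceptors, heparan sulfate genes and FGF binding proteins 28 were tested. With obesity in young mice 2 rose and 0 fell (median log2 0.20, beside -0.02 over all genes), where 3.46% of all genes rose and 5.37% fell. When GC and length trends were taken out, 182 genes rose and 176 fell in that comparison, in place of 499 and 776. In aged obese against young lean 2 of the 28 rose and 0 fell (0.24, beside -0.01), where 5.62% of all genes rose and 4.65% fell. Hs6st2, which adds sulfate groups to heparan sulfate, rose in both. It lay between 50.4 and 101 CPM (median 71.8) in young lean, 93.6 and 132 CPM (median 111) in young obese, 58.8 and 87.2 CPM (median 76.6) in aged lean and 91.1 and 120 CPM (median 108) in aged obese libraries. The 6 aged obese libraries lay above every aged lean library, as was so for 0.187% of all genes in one direction or the other, and the change with obesity in aged mice was 0.5 ± 0.13 (edgeR adjusted p = 0.0788). The log2 fold change of Hs6st2 was 0.62 ± 0.12 with obesity in young mice (edgeR adjusted p = 0.00901) and 0.56 ± 0.13 in aged obese against young lean (adjusted p = 0.00934). It passed in each of the 16 and 14 fits that left out 1 library. Leaving out 1 of the close young obese libraries kept its neighbours in the fit. Over the 9 other settings, that without young obese 1 and 2 among them, the change with obesity in young mice was 0.44 to 0.65. Not all of those settings passed. In aged obese against young lean Hs6st2 passed without either pair of aged obese libraries (adjusted p = 0.0228 and 0.0478) but not with quality weights (0.0525). Sdc3, a syndecan, rose by 0.60 ± 0.17 with obesity in young mice (adjusted p = 0.0303), but was at 440 and 393 CPM in young obese 1 and 2, and without them the change was 0.31 (adjusted p = 0.182). Its call also ended without young lean 7, 26 or 27 or young obese 1 or 2 alone (adjusted p 0.0599 to 0.0842). Ext1, a polymerase of heparan sulfate, rose by 0.43 ± 0.13 in aged obese against young lean (adjusted p = 0.0276), and was at 0.26 without aged obese 15 and 17 (adjusted p = 0.243) and at 0.52 without aged obese 10 and 12 (0.0237). This call ended without aged obese 15 or 17 or young lean 26 or 27 alone (adjusted p 0.0533 to 0.102). The klotho coreceptor genes Kl and Klb had means of 0.0037 and 0.0571 CPM and were not tested.

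All 28 listed receptor adaptors and members of the RAS-ERK cascade were tested. With obesity in young mice 2 rose and 1 fell (median log2 0.15), where 8.83% of all genes were called, and in aged obese against young lean 0 rose and 1 fell (0.02), where 10.3% were. The RAS activators Sos1 and Sos2 rose by 0.45 ± 0.13 (edgeR adjusted p = 0.0315) and 0.36 ± 0.12 (0.046), and Mapk3, which encodes ERK1, fell by 0.23 on the log2 scale (adjusted p = 0.0246). When GC and length trends of the libraries were taken out, none of these 3 passed (log2 0.24, 0.21 and -0.05), and without young obese 1 and 2 Sos1 was at 0.26 and Sos2 at 0.16. With single libraries left out of the 16, Sos1 passed in 10 fits, Sos2 in 8 and Mapk3 in 12, and each ended without young lean 7, 26 or 27. Frs3, a docking protein of FGF receptors, fell in aged obese against young lean, from 3.8 ± 0.801 to 1.83 ± 0.868 CPM (log2 -1.04 ± 0.25, adjusted p = 0.0113), and passed in 14 of 14 fits that left out a library, but not without aged obese 15 and 17 together (-0.74, adjusted p = 0.089). Its close relative Frs2 had a mean of 55.9 CPM.

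Of 22 feedback and target genes of FGF and ERK 21 were tested. In aged obese against young lean 5 rose and 0 fell (median log2 0.42, beside -0.01 over all genes), where 5.62% of all genes rose. With age in obese mice 2 rose (1.87% of all genes did) and with obesity in young mice 1 rose (3.46% of all genes did). Dusp6, the phosphatase that removes phosphate from ERK in the cytoplasm, lay between 26.5 and 76.6 CPM (median 49.4) in aged obese and between 6.96 and 31.4 CPM (median 11.4) in young lean libraries. Its log2 fold change was 1.71 ± 0.36 (edgeR adjusted p = 0.00668), and it passed in 14 of 14 fits that left out a library and without either pair of aged obese libraries. In young obese libraries Dusp6 lay between 11.9 and 41.5 CPM (median 13.9), with a log2 fold change of 1.26 ± 0.35 for age in obese mice (adjusted p = 0.0458), which passed in 3 of 14 fits that left out a library, those without aged obese 16, young obese 1 or young obese 2 (adjusted p 0.0546 to 0.115 in the other 11), and in neither fit without a pair of aged obese libraries (0.0843 and 0.111). Dusp4, a nuclear ERK phosphatase, reached 275 CPM in aged obese 15 and 176 CPM in aged obese 17, and lay between 14.5 and 77.8 CPM in the other 4, against 4.98 to 27.3 CPM in young lean libraries. Its log2 fold change was 2.69 ± 0.55 (adjusted p = 0.00661), 1.45 without that pair (adjusted p = 0.115), 2.94 without aged obese 10 and 12 (0.00772) and 1.63 with quality weights (adjusted p = 0.0518). Dusp5, another nuclear ERK phosphatase, reached 291 and 169 CPM in this pair and lay between 14 and 29.2 CPM in the other 4. It rose by 3.43 ± 0.86 with age in obese mice (adjusted p = 0.0294), and was at 1.38 without the pair (adjusted p = 0.544), at 2.60 without aged obese 15 (0.135) and at 3.16 without aged obese 17 (0.0637). That call also ended without young obese 18, 19, 20, 21 or 23 (adjusted p 0.0538 to 0.0592). High values were not limited to aged obese libraries. Aged lean 16 was at 194 CPM for Dusp5 and at 145 CPM for Dusp4. The next aged lean values were 32.9 CPM for Dusp5 (aged lean 15) and 62.4 CPM for Dusp4 (aged lean 17). The young lean library YL512 was at 57.9 CPM for Dusp5. In aged lean libraries Dusp6 lay between 9.68 and 35.1 CPM. Lif, an interleukin-6 family cytokine, rose by 1.95 ± 0.56 in aged obese against young lean (edgeR adjusted p = 0.027). This call ended without aged obese 14, 15 or 17 or young lean 26 (adjusted p 0.0501 to 0.0659). It also ended without aged obese 15 and 17 together (1.89, 0.0993), but not without aged obese 10 and 12 (2.27, 0.0235). Lif lay between 33.3 and 152 CPM in aged obese and between 8.84 and 36.1 CPM in young lean libraries. It was also high in young obese 1 and 2 (109 and 105 CPM) and in aged lean 15 and 16 (86.6 and 126 CPM). The other young obese libraries reached 22.6 CPM and the other aged lean ones 31.9 CPM. Myc rose by 0.47 ± 0.14 with obesity in young mice (adjusted p = 0.034), and was at 0.32 without young obese 1 and 2 (adjusted p = 0.153). It did not pass without either of them alone or without young lean 7, 26 or 27 (adjusted p 0.0548 to 0.0891). Named after their values were seen, the other calls in aged obese against young lean were Dusp5 (log2 2.81, adjusted p = 0.0315, and 0.75 without aged obese 15 and 17) and the ETS factor gene Etv4 (1.48, adjusted p = 0.047, and -0.10 without aged obese 10 and 12), and Etv4 also did not pass without aged obese 15 and 17 (1.86, adjusted p = 0.0517). Of the 14 fits that left out a library, Dusp5 did not pass in 8, those without aged obese 15 or 17 or young lean 7, 23, 24, 25, 26 or 27 (adjusted p 0.0518 to 0.141), and Etv4 did not pass in 10, those without aged obese 10, 12 or 15 or any young lean library but YL512 (0.0552 to 0.238).

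**Figure D5:**
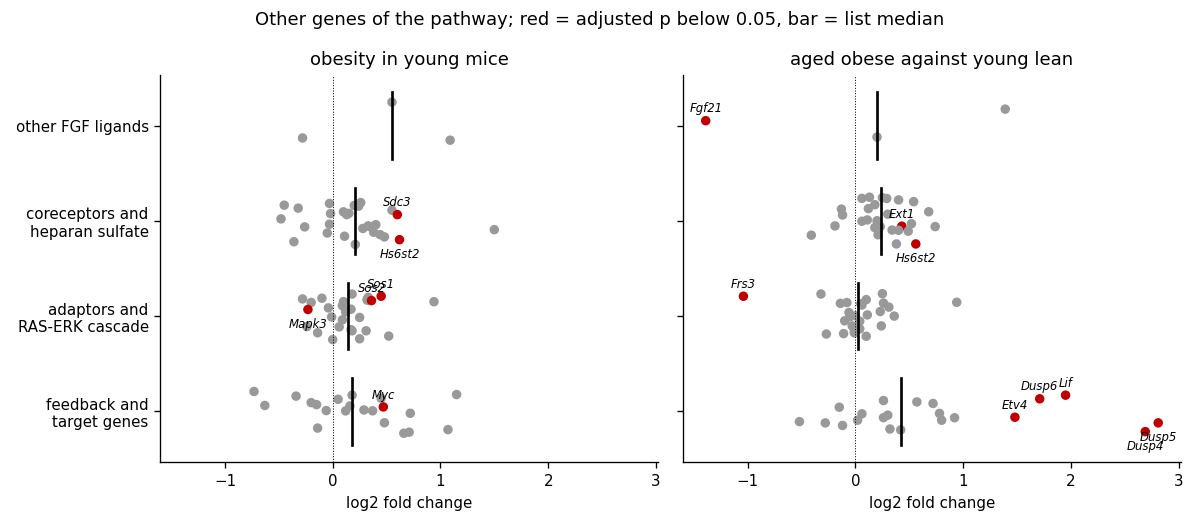
Log2 fold changes of the tested genes of 4 lists of the FGF pathway with obesity in young mice and in aged obese against young lean, red where the edgeR adjusted p was below 0.05, with a bar at each list's median. In aged obese against young lean Dusp4, Dusp5, Dusp6, Etv4 and Lif of the feedback and target genes rose, with values from 1.48 to 2.81. Fgf21 and Frs3 fell.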

How the data were processed

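For 30 libraries the authors deposited whole-number read counts per Ensembl gene, without normalization. The tools named were STAR, HTSeq 0.7.0 and DESeq2 1.12.4, per the submitters' processing notes. Genome build, annotation and strand setting are not given in the sources used here. The 5 lines naming no gene entered neither library sizes nor tests, and reads in no gene made up 3.94% to 8.75% of a library. A deposited sample overview gave sex, diet and ages, and groups came from the sample titles.

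Genes were kept by filterByExpr of edgeR 4.0.16 (R 4.3.3) with the groups given, TMM scaling was used, and glmQLFit fitted 1 coefficient per group over the 30 libraries together (26 residual degrees of freedom). Adjusted p-values are Benjamini-Hochberg values over 14438 genes, tests were two-sided, and genes below 0.05 were called. Fold changes are log2 values with their SE. Levels per length used exon lengths of GENCODE M21, and intervals and floors cover counting and model error only. The fitting script was tested on simulated data.

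Alternatives were RLE size factors, DESeq2 1.42.0, voom of limma 3.58.1 with quality weights, no filter, only the groups compared, the removal of GC and length trends, leaving out each library or pairs of libraries, and a replicate block. The members and lists were chosen with earlier results of these data known. Each of the 9 genes was named in each comparison, then up to 3 called genes with the smallest adjusted p per list and comparison, and the 3 genes most like each member with a mean of at least 4 CPM (Pearson's r of log2 CPM with a prior count of 2). RefSeq promoter windows were matched by symbol, windows on the chromosome of Fgf1 were left out, and those of 7 of the 9 genes were used. Proteins were not used here.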

Additional observations from a re-analysis of the deposited data

Results flagged for a closer look

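In 6 of 32 sets of libraries, each of 1 gene in 1 group, the highest library stood apart from the rest by Dixon's criterion. About 1.6 would be reached by chance if the sets were independent and their values normally distributed. The genes share libraries, the criterion was applied to linear CPM, and the rate over all genes is not given here. Whether 6 exceeds the rate of other genes therefore cannot be told. Fgf2 was at 6.84 CPM in the young lean library YL512, with the next library at 3.27 CPM, and at 10.8 CPM in young obese 22, with the next at 6.34 CPM. Fgf7 was at 341 CPM in aged obese 14, with the next at 189 CPM. Fgf10 was at 3.24 CPM in the young lean library YL512, with the next at 0.65 CPM. Fgfr1 was at 585 CPM in aged lean 16, with the next at 391 CPM. Fgfr2 was at 39.7 CPM in aged obese 15, with the next at 14.1 CPM. YL512 was the highest of its group for both Fgf2 and Fgf10, and it had the lowest share of reads in no gene in the study (3.94%). It also had the highest summed level of the 6 mature adipocyte marker genes in the study (1210 CPM). The part of either in its values was not tested.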

How the results depend on the processing

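Counts of called members moved as follows. For obesity in young mice the count of 0 became 1 (Fgfr3) with only the groups compared, 3 (Fgf1, Fgf2 and Fgfr3) with voom quality weights, and 0 to 1 with single libraries left out (Fgf2 without young lean YL512). For obesity in aged mice it became 1 (Fgfr3) in DESeq2, and 0 to 1 without single libraries (Fgfr3 without aged lean 16 or aged obese 16). For age in obese mice it became 3 (Fgf1, Fgfr1 and Fgfrl1) with voom, 1 (Fgfr1) without aged obese 10 and 12, and 0 to 1 without single libraries (Fgfr1 without aged obese 10 or 16). In aged obese against young lean the count of 3 became 2 (Fgfr1 and Fgfr3) with no filter on low counts, 1 with only the groups compared (Fgfr3) and with voom (Fgfr1), 0 without aged obese 15 and 17, a pair chosen after seeing the data, and 1 to 4 without single libraries (1, Fgfr3, without aged obese 15, aged obese 17, young lean 23 or young lean 26, and 4, with Fgf2, without young lean YL512). The count of all genes called moved too. For obesity in young mice it went from 1275 to between 143 (without young obese 1 and 2) and 4266 of 14438 (voom). It was 1642 of 13626 there with only the groups compared. For obesity in aged mice it went from 32 to between 0 (only the groups compared) and 435 (without aged lean 16), with 188 in DESeq2. For age in obese mice it went from 443 to between 43 (without aged obese 15) and 2870 (voom). Without aged obese 10 and 12 it was 2679 there. In aged obese against young lean it went from 1483 to between 238 (without aged obese 15 and 17) and 2405 (without aged obese 16). It was 695 there with voom and 410 with only the groups compared. Of the lists, the 5 calls among feedback and target genes in the last comparison became 1 to 7. The 2 among coreceptor genes in that comparison became 0 to 5 and the 1 among adaptors 0 to 3. For obesity in young mice the 2 among coreceptor genes became 0 to 9 and the 3 among adaptors 0 to 10. The 1 among feedback and target genes became 0 to 6 there.

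None of the values of the 9 genes that changed sign had passed the threshold. With voom Fgf2, Fgf7 and Fgf10 became 0.38, 0.15 and 0.01 for obesity in aged mice, Fgfr3 became -0.22 for age in lean mice, Fgf2 0.40 and Fgfr3 -0.10 for age in obese mice, Fgf1 0.07 in aged obese against young lean, and Fgf7, Fgf10 and Fgfr2 0.36, 0.29 and -0.15 for the interaction. With GC and length trends taken out Fgf7 became 0.05 and Fgfr1 -0.03 for obesity in young mice and Fgf2 0.04 for age in obese mice. Without young obese 1 and 2 Fgfr1 became -0.03 for obesity in young mice, Fgf2 0.03 for age in obese mice, and Fgf7 0.24 and Fgf10 0.09 for the interaction. Without aged obese 10 and 12 Fgf2 became 0.26 and Fgf7 0.06 for obesity in aged mice, and Fgf2 0.25 for age in obese mice. For the interaction Fgf7 became 0.10 and Fgf10 0.30 without this pair. The ETS factor gene Etv4, which had passed in aged obese against young lean, became -0.10 without it. Without aged obese 15 and 17 Fgf1, Fgf7, Fgfr1 and Fgfr2 became -0.24, 0.16, -0.08 and -0.31 for obesity in aged mice, Fgfr2 -0.23 for age in obese mice, and Fgf7, Fgfr1 and Fgfr2 0.21, -0.14 and -0.71 for the interaction. The cause was not tested.

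With single libraries left out, values that changed sign ranged from -0.15 to 0.08 (Fgf7) and -1.02 to 0.30 (Fgf10) for obesity in young mice, from -0.22 to 0.32 (Fgf1), -0.18 to 0.12 (Fgf2), -0.34 to 0.04 (Fgf7) and -0.18 to 0.67 (Fgfr2) for obesity in aged mice, and from -1.13 to 0.32 (Fgf10) and -0.06 to 0.12 (Fgfrl1) for age in lean mice. They ranged from -0.19 to 0.17 (Fgf2), -0.16 to 0.23 (Fgf7) and -0.10 to 0.75 (Fgfr2) for age in obese mice, from -0.21 to 0.21 (Fgf7) in aged obese against young lean, and from -0.29 to 0.10 (Fgf7), -1.29 to 0.16 (Fgf10) and -0.58 to 0.27 (Fgfr2) for the interaction.

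Mouse numbers shared between groups gave 12 libraries for a paired fit. The correlation of same-numbered deviations was 0.082 and 0.21 in young and 0.20, 0.39, -0.099 and -0.52 in aged mice. No values for libraries with different numbers are set beside these, so they do not show whether the numbers pair mice. With a replicate block 0 members and 0 of all genes passed in the comparisons it could give, as in the same 12 libraries without it. With the replicate block (and without it in these libraries) Fgf7, Fgf10 and Fgfrl1 were 0.16 (0.17), 0.94 (1.12) and 0.28 (0.30) for obesity in young mice, Fgfrl1 was -0.10 (-0.09) for obesity in aged mice, Fgfrl1 was -0.39 (-0.39) for the interaction, and Fgfr2 was -0.29 with the block.

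Fgf1, Fgf10 and Fgfr4 had few counts, which limits the precision of their values. Leaving out libraries also lowers the number of libraries and thereby the power of a fit.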
